A study of Mus musculus with 2 samples.

Results

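The genes described here are 8 receptors that direct T cells to tissues: Ccr7, Cxcr6, Ccr8, Ccr9, Cxcr3, Ccr2, Cxcr4 and Gpr183. They were taken by symbol from the 27998 genes listed in the count matrices, and all 8 passed the minimum of 20 UMIs (unique molecular identifiers, each standing for 1 captured RNA molecule) in every comparison made. The levels were read in CD8 T cells and in Foxp3+ regulatory T cells (Tregs) sorted together from the pancreatic islets of NOD (non-obese diabetic) mice, a strain that develops autoimmune diabetes. The wild type (WT) library came from NOD.Foxp3-EGFP mice. The knockout (KO) library came from NOD.Tnfrsf9-/-.Foxp3-EGFP mice, which lack the costimulatory receptor CD137 (gene Tnfrsf9) in all cells, so the cell in which its loss acts cannot be told apart. Both strains share the NOD background and the Foxp3-EGFP reporter, and each library pooled 6 females of 9 to 10 wk. CD45.1+ CD8 T cells and CD45.1+ CD4+ GFP+ cells were sorted before loading, which removed CD11b+ cells.

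Chemokine receptors are G protein-coupled receptors that make a cell move up a gradient of their ligand. Ccr7 follows CCL19 and CCL21 into lymph nodes and is typical of naive and central memory cells, and Ccr9 follows CCL25 to the thymus and small intestine. Cxcr4 answers CXCL12, a retention signal of bone marrow and lymphoid tissue, and Gpr183 (EBI2) answers oxysterols that place cells within lymphoid organs. Cxcr6 (ligand CXCL16), Cxcr3 (ligands CXCL9 and CXCL10, which interferon induces) and Ccr2 (ligand CCL2) are receptors of effector and memory cells in inflamed tissue, and Ccr8 (ligand CCL1) marks activated Tregs of tissues. The comparison of genotypes asks how CD137 deficiency alters Tregs and CD8 T cells in the islets.

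The genes lie on 5 chromosomes of GRCm38, the assembly also called mm10. Cxcr6 (chr9:123806475-123811760), Ccr8 (chr9:120092114-120094906), Ccr9 (chr9:123678439-123784330) and Ccr2 (chr9:124101950-124113557) lie on the plus strand of chromosome 9. Ccr7 (chr11:99144196-99155077), Cxcr3 (chrX:101731535-101734269), Cxcr4 (chr1:128588199-128592293) and Gpr183 (chr14:121952551-121965195) lie on the minus strand. Cxcr6 overlaps Fyco1, Ccr9 overlaps Lztfl1 and Slc6a20a, and Gpr183 overlaps Ubac2, all on the other strand, and Ccr9 also overlaps Gm17020 and Gm17200 on its own strand.

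Promoters are shown for Cxcr3, Cxcr6 and Ccr2: the last 2 were found together in single Tregs below, and Cxcr3 is a known target of the factor Tbx21 read there. Each runs 5′ to 3′ from 250 bases before to 50 bases after the RefSeq start (GRCm38.p6), at chrX:101734098-101734397 (minus strand), chr9:123806227-123806526 (plus) and chr9:124101933-124102232 (plus). Capitals mark TCACAC, the core of the element bound by T-box factors such as Tbx21 (T-bet).
Cxcr3: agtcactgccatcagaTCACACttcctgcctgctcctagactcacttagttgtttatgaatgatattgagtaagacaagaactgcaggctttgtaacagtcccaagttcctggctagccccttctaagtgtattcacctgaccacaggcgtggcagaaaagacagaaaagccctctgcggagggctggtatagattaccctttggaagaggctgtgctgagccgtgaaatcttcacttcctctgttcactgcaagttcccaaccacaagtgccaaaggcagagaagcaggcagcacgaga
Cxcr6: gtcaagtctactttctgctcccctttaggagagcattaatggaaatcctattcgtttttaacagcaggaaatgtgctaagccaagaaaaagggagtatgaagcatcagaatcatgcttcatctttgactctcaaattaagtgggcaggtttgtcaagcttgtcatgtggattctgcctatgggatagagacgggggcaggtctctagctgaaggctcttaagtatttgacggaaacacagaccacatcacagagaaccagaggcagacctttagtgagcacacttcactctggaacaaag
Ccr2: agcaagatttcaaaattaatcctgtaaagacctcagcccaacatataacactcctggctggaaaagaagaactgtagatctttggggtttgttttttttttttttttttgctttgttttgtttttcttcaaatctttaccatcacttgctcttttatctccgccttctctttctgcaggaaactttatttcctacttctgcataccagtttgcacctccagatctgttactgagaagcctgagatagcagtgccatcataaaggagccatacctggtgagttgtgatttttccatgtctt

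Of the 7 receptors with a promoter in the RefSeq table, TCACAC on either strand was found in Cxcr3 alone, beginning at position -234 from the start. It occurred in 14.5% of all 32851 promoters of this length. CACCC on either strand, the core of elements bound by Krüppel-like factors such as Klf2, was found in Cxcr4, Ccr8 and Ccr9 and in 57.5% of all promoters. The Ccr7 promoter was not analysed here.

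The libraries held 2804 (WT) and 2991 (KO) barcodes, of which 2714 and 2915 had 200 to 5000 genes and at most 20% mitochondrial UMIs. A cell was classed as a CD8 T cell with at least 2 UMIs of Cd8a and Cd8b1 and none of Cd4 or Foxp3, and as a Treg with no Cd8a or Cd8b1 UMI and at least 1 of Cd4, Foxp3, Il2ra or Ikzf2. This gave 891 (WT) and 1200 (KO) CD8 T cells with medians of 6076 and 5275 UMIs, and 1552 and 1444 Tregs with medians of 4302 and 4308.5. UMIs of Cd3d were found in 93.0% to 98.5% of the cells of each class. Foxp3 itself was seen in only 13.2% of WT and 19.5% of KO Tregs, whereas Ikzf2 (Helios) was seen in 95.4% and 93.6% and Cd4 in 60.4% and 57.8%, so the class rests mainly on Ikzf2 and Cd4. The libraries shared 16 barcodes.

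Levels are given as counts per 1000000 UMIs of a class (CPM). Tnfrsf9, the targeted gene, stood at 106 CPM in WT and 32.0 in KO CD8 T cells, and at 337 and 110 in Tregs. It was thus at 0.30 and 0.33 of its WT level rather than absent, and the position of the deletion relative to the 3′ end that was sequenced is not given in the sources used here. Each genotype was 1 library, so no test of the genotype was possible. Ratios below carry exact 95% intervals that cover counting error only, not the spread between mice or sorts.

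A small number of cells classed as CD8 T cells carried Siglech, a marker of plasmacytoid dendritic cells, which are known to use Ccr9. There were 12 in the WT and 6 in the KO library, at median depths of 12293 and 9184.5 UMIs. Tyrobp, which T cells mostly lack, was found in 9 of the 12 and in all 6, against 0.455% and 0.754% of the other CD8 T cells, while Cd3g was found in 8 of the 12 and 2 of the 6. These cells held 96 of the 199 Ccr9 UMIs of WT CD8 T cells (48.2%) and 60 of 447 in the KO (13.4%). They also held 13.4% (WT) and 7.31% (KO) of the Ccr2 UMIs and 14.1% and 3.40% of the Gpr183 UMIs, but under 2% of those of the other receptors. The levels and ratios of Ccr9, Ccr2 and Gpr183 in CD8 T cells are therefore given with and without them, a step added after the data were seen. In Tregs 1 cell of each library carried Siglech.

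**Figure D1:**
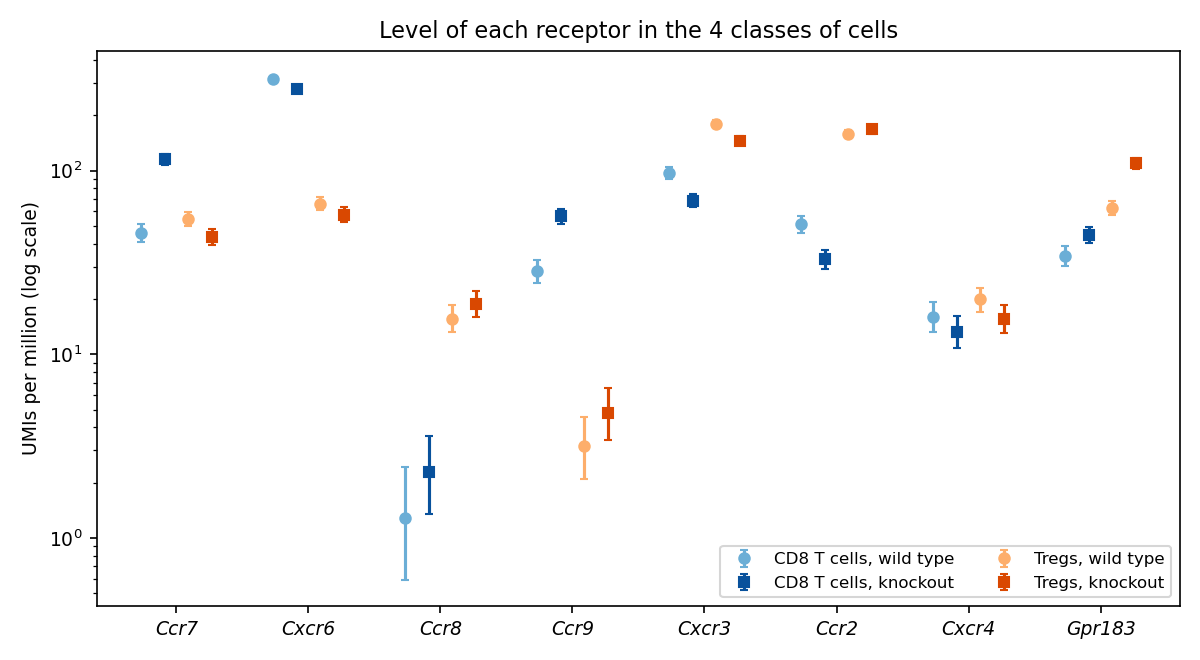
CPM (log axis) of each receptor in CD8 T cells and Tregs of the WT and KO libraries, with bars for exact Poisson 95% intervals of the counts. Cxcr6 and Ccr9 lay higher in CD8 T cells and Ccr8 and Ccr2 in Tregs of both libraries, and Ccr7 was highest in KO CD8 T cells, at 115.

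Between the lineages, 2 of the 8 receptors were at least 2-fold higher in CD8 T cells of both libraries (Cxcr6 and Ccr9) and 2 were at least 2-fold higher in Tregs (Ccr8 and Ccr2), with intervals clear of equality. Of the 11072 genes compared, 2.75% were higher in CD8 T cells by this rule and 5.77% in Tregs. Cxcr3 and Gpr183 were also higher in Tregs of both libraries, by less than 2-fold in the WT. Cxcr4 did not differ beyond its interval in either library, and Ccr7 changed sides with the genotype. Over all genes the median log2 ratio of CD8 T cells to Tregs was -0.11 (WT) and -0.15 (KO), and over the 8 receptors it was -0.59 and -0.66.

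Cxcr6 set CD8 T cells apart in both libraries. It stood at 314 CPM (301 to 328) in WT and 278 (266 to 289) in KO CD8 T cells, and at 65.9 (60.7 to 71.5) and 57.6 (52.6 to 63.1) in Tregs. The log2 ratio of CD8 T cells to Tregs was 2.25 (2.12 to 2.39) in the WT and 2.27 (2.12 to 2.41) in the KO library. The order was the same in both libraries, and only the Treg values of the libraries overlapped.

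Ccr9 stood at 28.4 CPM (24.6 to 32.6) in WT and 56.5 (51.4 to 62.0) in KO CD8 T cells, and at 3.15 (2.09 to 4.55) and 4.78 (3.40 to 6.54) in Tregs. The lineage log2 ratio was 3.17 (2.596 to 3.80) in the WT and 3.56 (3.09 to 4.07) in the KO. Without the Siglech+ cells the CD8 levels were 15.0 (12.3 to 18.2) and 49.3 (44.5 to 54.4) and the ratios 2.25 and 3.36, so the order stayed. Ccr9 UMIs were seen in 1.55% of WT and 1.45% of KO Tregs, no more than the 1.57% to 3.32% of cells of the 4 classes with a UMI of insulin (Ins2), which T cells do not make. Other genes foreign to T cells differed in Tregs, with 1.22% to 3.95% for the islet and acinar genes Ins1, Gcg and Ctrb1. Shares were 0.258% and 0.346% for the myeloid gene Lyz2 and 0.0644% and 0.208% for the B cell gene Cd79a. The Ccr9 share thus lay within the range of the pancreas genes and above the last 2, and no expression in Tregs is read from it. The lineage ratios of Ccr9 therefore give a direction, not an exact size. In KO Tregs 5 cells held 59.0% of the 39 UMIs, so the transcript was not spread evenly.

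Ccr8 had the opposite distribution. It stood at 15.6 CPM (13.1 to 18.5) in WT and 18.9 (16.0 to 22.1) in KO Tregs, and rested on 9 and 18 UMIs in CD8 T cells, or 1.28 (0.587 to 2.44) and 2.28 (1.35 to 3.60). The log2 ratio of CD8 T cells to Tregs was -3.61 (-4.77 to -2.64) in the WT and -3.05 (-3.85 to -2.34) in the KO. Cells with a UMI made up 7.35% and 9.07% of Tregs and 1.01% and 1.33% of CD8 T cells, which in CD8 T cells is below the 1.57% and 2.08% with Ins2 but above the 0.449% and 0.25% with Lyz2. The lineage ratios of Ccr8 are likewise read for their direction, not their exact size.

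Ccr2 stood at 159 CPM (151 to 167) in WT and 168 (159 to 177) in KO Tregs, which overlapped, and at 51.2 (46.0 to 56.8) and 32.9 (29.0 to 37.1) in CD8 T cells, which did not. The lineage log2 ratio was -1.63 (-1.80 to -1.46) in the WT and -2.35 (-2.55 to -2.16) in the KO. The CD8 levels without Siglech+ cells were 45.3 (40.4 to 50.7) and 30.7 (26.9 to 34.8), and the ratios were -1.81 and -2.45. Ccr2 is best known for the recruitment of monocytes, and here Tregs held it at the higher level in both libraries.

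Cxcr3 followed the same order with 4 separate levels: 179 CPM (170 to 188) in WT Tregs, 145 (137 to 154) in KO Tregs, 97.4 (90.2 to 105) in WT CD8 T cells and 68.7 (63.0 to 74.7) in KO CD8 T cells. The log2 ratio of CD8 T cells to Tregs was -0.87 (-1.01 to -0.74) and -1.08 (-1.23 to -0.93). Gpr183 likewise had 4 separate levels: 109 (102 to 117) in KO Tregs, 62.5 (57.5 to 68.0) in WT Tregs, 44.6 (40.1 to 49.5) in KO CD8 T cells and 34.4 (30.2 to 39.0) in WT CD8 T cells. Without the Siglech+ cells Gpr183 passed the 2-fold rule for Tregs in both libraries, at log2 ratios of -1.05 and -1.33.

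Cxcr4 stood between 13.3 (10.9 to 16.1) and 19.9 (17.1 to 23.1) CPM in the 4 classes, and every class overlapped its neighbour in the order. Ccr7 was the only receptor whose lineage order differed between the libraries. In the WT it was slightly lower in CD8 T cells (45.6, 40.8 to 50.9) than in Tregs (54.8, 50.03 to 59.9), with a log2 ratio of -0.26 (-0.47 to -0.06). In the KO it stood at 115 (108 to 123) in CD8 T cells against 43.5 (39.1 to 48.3) in Tregs, with a log2 ratio of 1.40 (1.22 to 1.58).

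**Figure D2:**
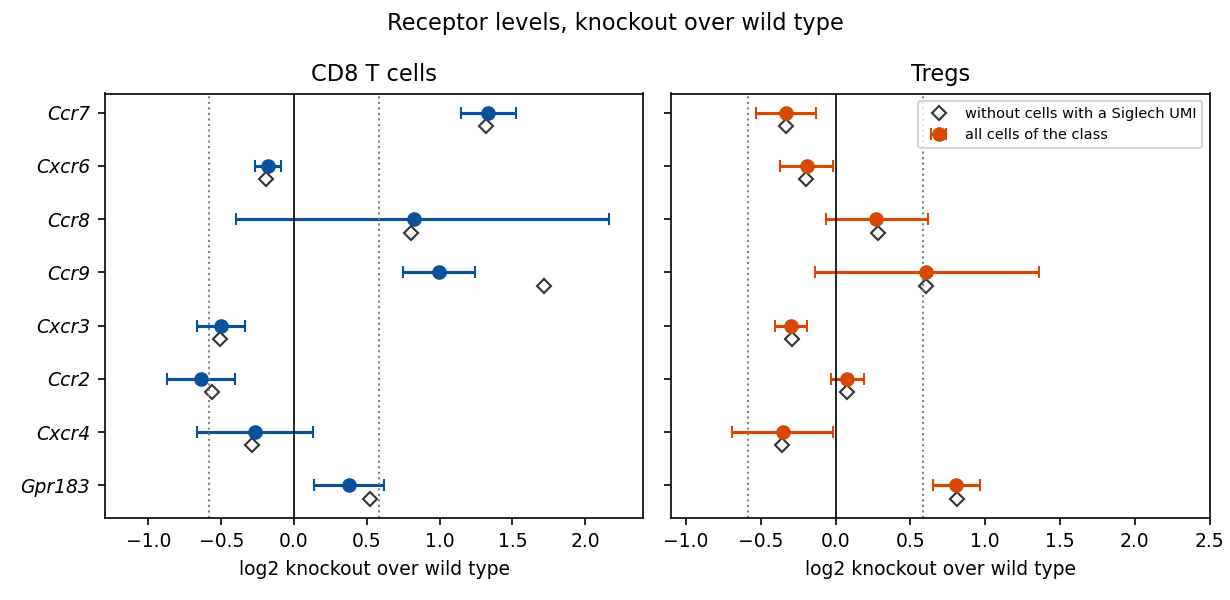
Log2 ratio of KO over WT for each receptor in CD8 T cells and Tregs, with exact 95% intervals (filled points) and the value without cells with a Siglech UMI (open diamonds). Dotted lines mark 1.5-fold. Ccr7 and Ccr9 in CD8 T cells and Gpr183 in Tregs lay beyond the line on the right with and without those cells, and the intervals of Ccr8 in CD8 T cells and Ccr9 in Tregs took in 0.

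Between the genotypes, 2 receptors were at least 1.5-fold higher in KO CD8 T cells (Ccr7 and Ccr9) and 1 was at least 1.5-fold lower (Ccr2), with intervals clear of equality. By this rule 10.9% of the 11083 genes compared were higher and 6.4% lower in KO CD8 T cells. In Tregs 1 receptor was higher (Gpr183) and none was lower, where 4.89% of 11428 genes were higher and 2% lower. The median log2 ratio over all genes was 0.04 in both classes, and over the 8 receptors it was 0.10 in CD8 T cells and -0.06 in Tregs.

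Of the 8 receptors Ccr7 had the highest ratio of KO to WT with all cells included. It was 2.52-fold higher in KO than in WT CD8 T cells, a log2 ratio of 1.33 (1.15 to 1.52), from 320 and 910 UMIs. The share of CD8 T cells with a Ccr7 UMI was 20.1% (17.5 to 22.9) in the WT and 41.3% (38.5 to 44.2) in the KO. With each cell thinned to 2000 UMIs it was 8.81% and 21.1%, of 874 and 1184 cells deep enough. Cells with Ccr7 carried a mean of 1.79 UMIs in the WT and 1.83 in the KO, but 54.7% and 53.2% of them had exactly 1, so this mean says little of the RNA per cell. Fewer cells with a transcript and less RNA per cell cannot be told apart here. In Tregs the log2 ratio was -0.33 (-0.53 to -0.13), under the 1.5-fold rule, and the share of cells was 17.7% in the WT and 17.2% in the KO.

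Ccr9 was 1.99-fold higher in KO CD8 T cells, with a log2 ratio of 0.99 (0.75 to 1.24). Cells with a UMI made up 8.08% (6.38 to 10.1) of WT and 19.6% (17.4 to 21.9) of KO CD8 T cells, and 5.26% and 11.6% after thinning. Without the Siglech+ cells the log2 ratio was 1.71, and the shares were 7.17% and 19.2%. The difference was thus larger without them.

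Ccr2 was lower in KO CD8 T cells, at 0.642 of its WT level and a log2 ratio of -0.64 (-0.87 to -0.40). Cells with a UMI made up 19.98% (17.4 to 22.8) of WT and 10.0% (8.36 to 11.8) of KO CD8 T cells, and 8.35% and 4.90% after thinning. Without the Siglech+ cells the log2 ratio was -0.56, which no longer reached 1.5-fold.

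Cxcr6 and Cxcr3 were lower in KO CD8 T cells by less than 1.5-fold, with log2 ratios of -0.18 (-0.26 to -0.09) and -0.50 (-0.67 to -0.34). The share of CD8 T cells with a Cxcr6 UMI was 54.2% (50.9 to 57.5) in the WT and 42.0% (39.2 to 44.9) in the KO, while the cells that had it carried a mean of 4.56 and 4.36 UMIs. After thinning the Cxcr6 shares were 35.4% and 24.7%. For Cxcr3 the shares were 41.5% and 27.7%, and 15.9% and 11.7% after thinning. In Tregs the log2 ratios were -0.19 (-0.37 to -0.02) for Cxcr6 and -0.30 (-0.41 to -0.19) for Cxcr3.

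Dividing cells were unequal between the CD8 classes. At least 2 of 5 proliferation genes were seen in 20.3% (WT) and 8.83% (KO) of the cells, against 10.9% and 11.98% for Tregs, and the genes summed to 698 and 368 CPM in CD8 T cells. Without cells with at least 2 UMIs of these genes the log2 ratio in CD8 T cells was 0.96 for Ccr7, 0.92 for Ccr9, -0.78 for Ccr2, -0.65 for Cxcr3 and -0.43 for Cxcr6. The 5 natural killer cell genes summed to 160 CPM in WT and 71.2 in KO CD8 T cells, with 1 of them at 0 in the WT. Of these sums 99.8 and 32.5 CPM were Eomes, which is also among the T cell state genes below. Tyrobp, another of the 5, had 412 (WT) and 258 (KO) UMIs in Siglech+ cells and 4 and 35 in the other CD8 T cells. The sums are therefore not read as a measure of natural killer cells, and their part in these results was not tested.

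Gpr183 was 1.75-fold higher in KO Tregs, with a log2 ratio of 0.81 (0.65 to 0.96). Cells with a UMI made up 22.3% (20.2 to 24.4) of WT and 28.4% (26.1 to 30.8) of KO Tregs, and 11.3% and 15.6% after thinning, and the mean count of the cells that had it was 1.61 in the WT and 2.18 in the KO. In KO CD8 T cells the log2 ratio was 0.38 (0.14 to 0.62), but the share of cells did not follow it (14.7% and 14.25%). Leaving out the Siglech+ cells, Gpr183 stood at 30.2 (26.2 to 34.6) and 43.4 (38.9 to 48.3) CPM there, a log2 ratio of 0.52. Mki67 and Top2a, genes of dividing cells, were also higher in KO Tregs, with log2 ratios of 1.01 and 0.64. With proliferating cells left out the Gpr183 log2 ratio in Tregs was 0.71.

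Intervals of Ccr8, Cxcr4 and Ccr9 took in or nearly reached equality elsewhere. Ccr8 had log2 ratios of 0.27 (-0.07 to 0.61) in Tregs and 0.83 (-0.40 to 2.16) in CD8 T cells, Cxcr4 of -0.27 (-0.66 to 0.13) in CD8 T cells and -0.35 (-0.69 to -0.02) in Tregs, and Ccr9 of 0.60 (-0.13 to 1.36) in Tregs. Ccr2 differed little between WT and KO Tregs, at 0.08 (-0.03 to 0.19).

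Genes of the same pathways were counted from lists chosen with earlier results of these data known. Of 7 other homing receptors counted with enough UMIs in CD8 T cells, 1 was higher in the KO and none was lower. This share is near the 10.9% of all genes. The gene was S1pr1 (the sphingosine receptor for leaving tissue), at a log2 ratio of 1.18 (0.98 to 1.39). In Tregs 2 of 12 were higher, S1pr1 (0.84) and Ltb4r1 (1.21, from 17 and 36 UMIs), and none was lower, where 4.89% of all genes were higher. Of 15 ligands 3 had enough UMIs in each class. Ccl1, which binds Ccr8, was the 1 ligand higher in the KO in each class. By the same rule 10.9% (CD8 T cells) and 4.89% (Tregs) of all genes were higher. The log2 ratios of Ccl1 were 1.34 (0.84 to 1.87) in CD8 T cells and 3.16 (2.25 to 4.21) in Tregs, the latter from 11 and 90 UMIs. Cxcl10, which binds Cxcr3, was the 1 ligand lower in KO Tregs, at -0.86 (-1.26 to -0.46), where 2% of all genes were lower.

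Of 22 genes for receptor signalling, 3 were higher and 2 lower in KO CD8 T cells, shares of the small list near the 10.9% and 6.4% of all genes. Dock2, the Rac activator through which chemokine receptors move lymphocytes, had a log2 ratio of 0.79 (0.72 to 0.86), Arrb1 of 0.83 and Rgs2 of 0.64, whereas the G protein subunit Gnai2 had -0.59 (-0.66 to -0.51) and the kinase subunit Pik3cg -0.73. In Tregs Dock2 was higher, at 0.66 (0.61 to 0.72), and no other of the 21 genes tested passed the rule, which is no more than the 4.89% higher and 2% lower of all genes.

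Genes of T cell state differed between the genotypes beside the receptors. Of 43 state genes with enough UMIs, 8 were higher and 10 lower in KO CD8 T cells, against 10.9% and 6.4% of all genes. The largest differences were in Klrg1 (log2 ratio of -4.10, from 61 and 4 UMIs), Gzmk (-1.91), the targeted Tnfrsf9, Eomes (-1.62), Lef1 (1.37) and Gzma (1.22). Ccl5 stood at -1.17, Pdcd1 at -0.93, Havcr2 at -0.71 and Il7r at 1.21, whereas Gzmb was at -0.14 and under the rule. In Tregs 6 of 45 were higher and 6 lower, against 4.89% and 2% of all genes, with the largest differences in the targeted Tnfrsf9, Gzmk (-1.21), Ccl5 (-1.04), Mki67, Il1rl1 (0.95) and Eomes (-0.95, from 59 and 28 UMIs). The part of these genes in the receptor differences was not tested.

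**Figure D3:**
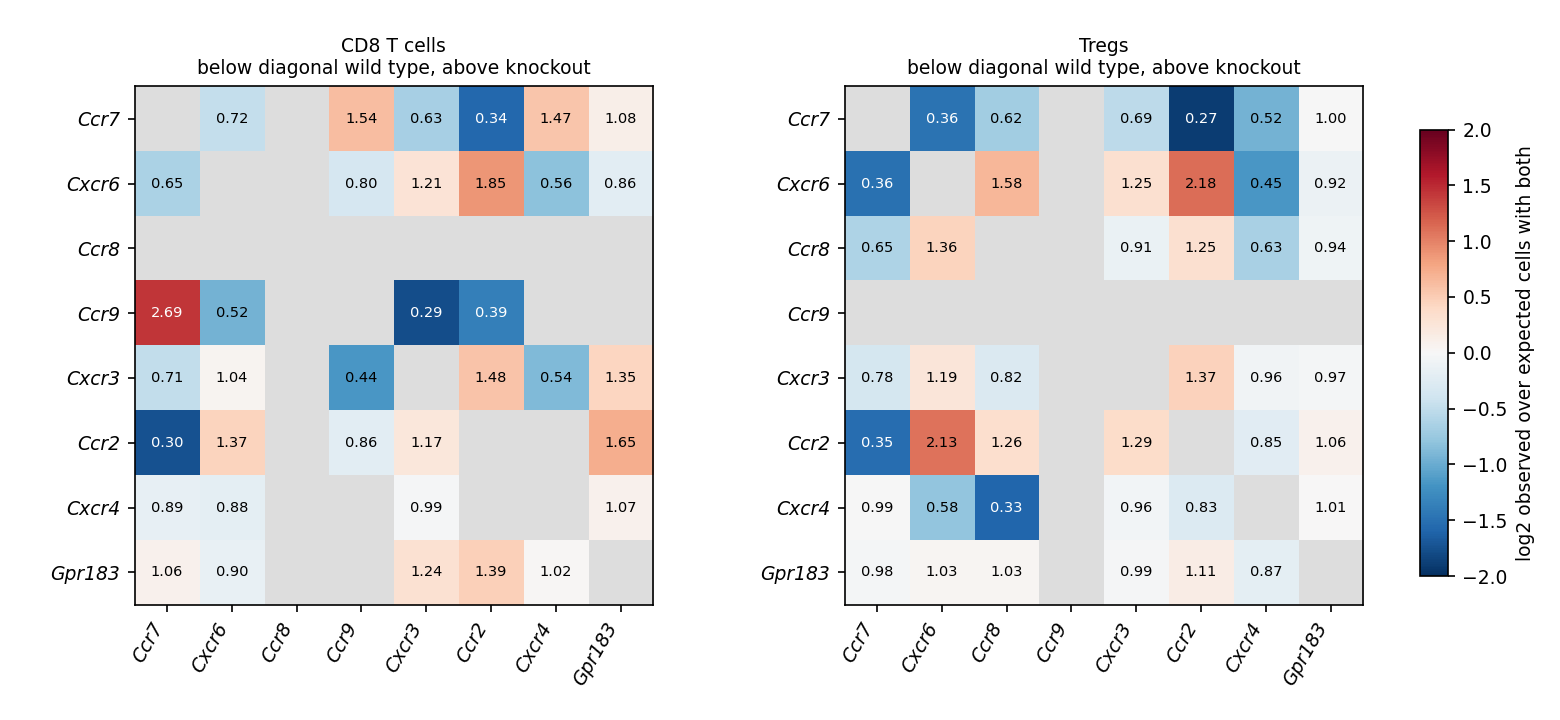
Number of cells with UMIs of both receptors divided by the number expected from independence within 5 depth bins, for each pair in CD8 T cells and Tregs of all cells classed (WT below the diagonal, KO above). Colour gives the log2 of the printed ratio, and grey marks pairs with under 10 cells expected in either library. Ccr7 with Ccr9 was above 1 in CD8 T cells and Cxcr6 with Ccr2 in Tregs, and Ccr7 with Ccr2 was below 1 in both.

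Most cells carried transcripts of few receptors at this depth. Of WT CD8 T cells 12.01% had none of the 8, 32.7% had 1 and 35.0% had 2, and in WT Tregs the shares were 21.5%, 31.0% and 28.5%. Since deeper cells show more of every gene, the count of cells with both receptors of a pair was compared with the count expected if they were independent among cells of similar depth. A pair was named as shared or as excluding where the ratio was at least 1.5-fold from 1 in the same direction in both libraries, with at least 10 cells expected. Of the 28 pairs, 18 could be read in CD8 T cells and 21 in Tregs. Cells of 1 library are not replicates, and the ratios are descriptions.

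In CD8 T cells Ccr7 and Ccr9 were found together. In the WT 43 cells had both where 16.0 were expected (ratio 2.69), and in the KO 153 where 99.4 were expected (1.54). Ccr7 was seen in 59.7% (47.5 to 71.1) of Ccr9+ WT cells and 16.6% (14.1 to 19.3) of the others, and in 65.1% (58.6 to 71.2) and 35.5% (32.5 to 38.7) in the KO. Without the Siglech+ cells the ratios were 2.83 and 1.57.

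Each excluded 1 receptor of inflamed tissue. Ccr7 and Ccr2 were found together in 10 WT cells where 33.5 were expected (0.30) and in 16 KO cells where 47.7 were expected (0.34). Ccr9 and Cxcr3 were found together in 12 WT cells (0.44) and 16 KO cells (0.29), with 27.0 and 54.4 expected. After thinning, or with at least 2 UMIs of each receptor, neither pair could be named, as under 10 cells were expected in at least 1 library, while the ratios were 0.55 or less. The other such pairs did not pass the rule in both libraries. Ccr7 and Cxcr6 were found together in 61 WT and 147 KO cells (0.65 and 0.72), Ccr7 and Cxcr3 in 50 and 83 (0.71 and 0.63, named as excluding under strict classes, which left out CD8 T cells with Ikzf2 or Il2ra, and without proliferating cells), and Cxcr6 and Ccr9 in 19 and 74 (0.52 and 0.80). Without the Siglech+ cells Ccr9 and Ccr2 also excluded each other, with 2 cells against 10.3 expected in the WT and 4 against 19.4 in the KO, whereas with them the WT ratio was 0.86. Cxcr6 and Ccr2 leaned together, at 1.37 and 1.85, and so did Cxcr3 and Ccr2, at 1.17 and 1.48.

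In Tregs Cxcr6 and Ccr2 were the pair named as shared. They were found together in 177 WT Tregs where 83.2 were expected (2.13) and in 133 KO Tregs where 61.0 were expected (2.18). Ccr2 was seen in 73.8% (67.7 to 79.2) of Cxcr6+ WT Tregs and 24.2% (21.9 to 26.7) of Cxcr6- ones, and in 70.7% (63.7 to 77.1) and 23.5% (21.2 to 25.9) in the KO. In turn, Cxcr6 was seen in 35.8% of Ccr2+ WT Tregs and 5.96% of Ccr2- ones, and in 31.1% and 5.41% in the KO.

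Ccr7 excluded 3 receptors in Tregs with all UMIs and 5 depth bins. It met Ccr2 in 32 WT and 21 KO cells (ratios 0.35 and 0.27), Cxcr6 in 16 and 12 (0.36 and 0.36) and Ccr8 in 15 and 16 (0.65 and 0.62). Only the pair with Ccr2 was named under every setting. The pairs with Cxcr6 and Ccr8 could not be named after thinning or with at least 2 UMIs of each receptor. Under 10 cells were then expected in at least 1 library. The pair with Ccr8 was also lost under strict classes, which asked Foxp3 or Il2ra of Tregs (KO ratio 0.73), and with 1 depth bin (0.74 and 0.71). Cxcr4 excluded Cxcr6, in 14 and 6 cells (0.58 and 0.45), and Ccr8, in 4 and 7 cells (0.33 and 0.63) on these small counts, and neither pair was named under several settings. After thinning, or with at least 2 UMIs of each receptor, under 10 cells were expected, so neither could be named. They were also not named under strict classes or without proliferating cells. Ccr8 with Cxcr4 was not named with 1 depth bin or the larger lineage sum either. The KO ratio turned above 1 for Ccr8 with Cxcr4 after thinning (1.18) and for Cxcr6 with Cxcr4 with at least 2 UMIs of each (2.08). Gpr183 had ratios between 0.87 and 1.11 with each of the 6 receptors it could be compared with in Tregs. Cxcr3 met Ccr2 in 309 and 263 Tregs, at 1.29 and 1.37, and Cxcr6 met Ccr8 in 27 and 30, at 1.36 and 1.58.

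The pair of Cxcr6 and Ccr2 in Tregs kept ratios of 1.90 to 2.81 under each of the 8 other settings tried, and Ccr7 with Ccr2 in Tregs kept ratios of 0.36 or less. The sharing of Ccr7 and Ccr9 in CD8 T cells was less firm in the KO. The KO ratio was 1.35 when a CD8 T cell needed 3 Cd8a and Cd8b1 UMIs and none of Ikzf2 or Il2ra, and 1.45 without proliferating cells. With at least 2 UMIs asked of each receptor, or with thinned cells, under 10 cells were expected in the WT, so the pair could not be named. The KO passed that minimum, and its ratios at these settings are not given here.

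Cells were also grouped by the whole set of receptors seen in them. Cells with none of the 8 made up 12.01% of WT and 12.5% of KO CD8 T cells and 21.5% and 24.1% of Tregs, and the orders below are among cells with at least 1. In WT CD8 T cells Cxcr6 alone (13.4%), Cxcr6 with Cxcr3 (98 of 891 cells) and Cxcr3 alone (8.42%) led. In KO CD8 T cells Ccr7 alone led (12.3%, 10.5 to 14.3, against 5.50%, 4.10 to 7.21, in the WT), and Ccr7 with Ccr9 made up 6.42% against 3.25%. Ccr7 with Cxcr6 made up 2.58% of WT CD8 T cells and was found in 48 of 1200 KO cells, and Ccr7 with Cxcr6 and Ccr9 made up 3.58% of the KO. In Tregs Cxcr3 alone led in both libraries (10.95% and 9.003%). It was followed by Cxcr3 with Ccr2 in the WT (7.15%, and 6.09% in the KO) and by Ccr7 alone in the KO (7.41%, and 6.31% in the WT). Gpr183 alone made up 4.25% of WT and 6.51% of KO Tregs, and Ccr7 with Cxcr3 3.67% of WT Tregs.

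**Figure D4:**
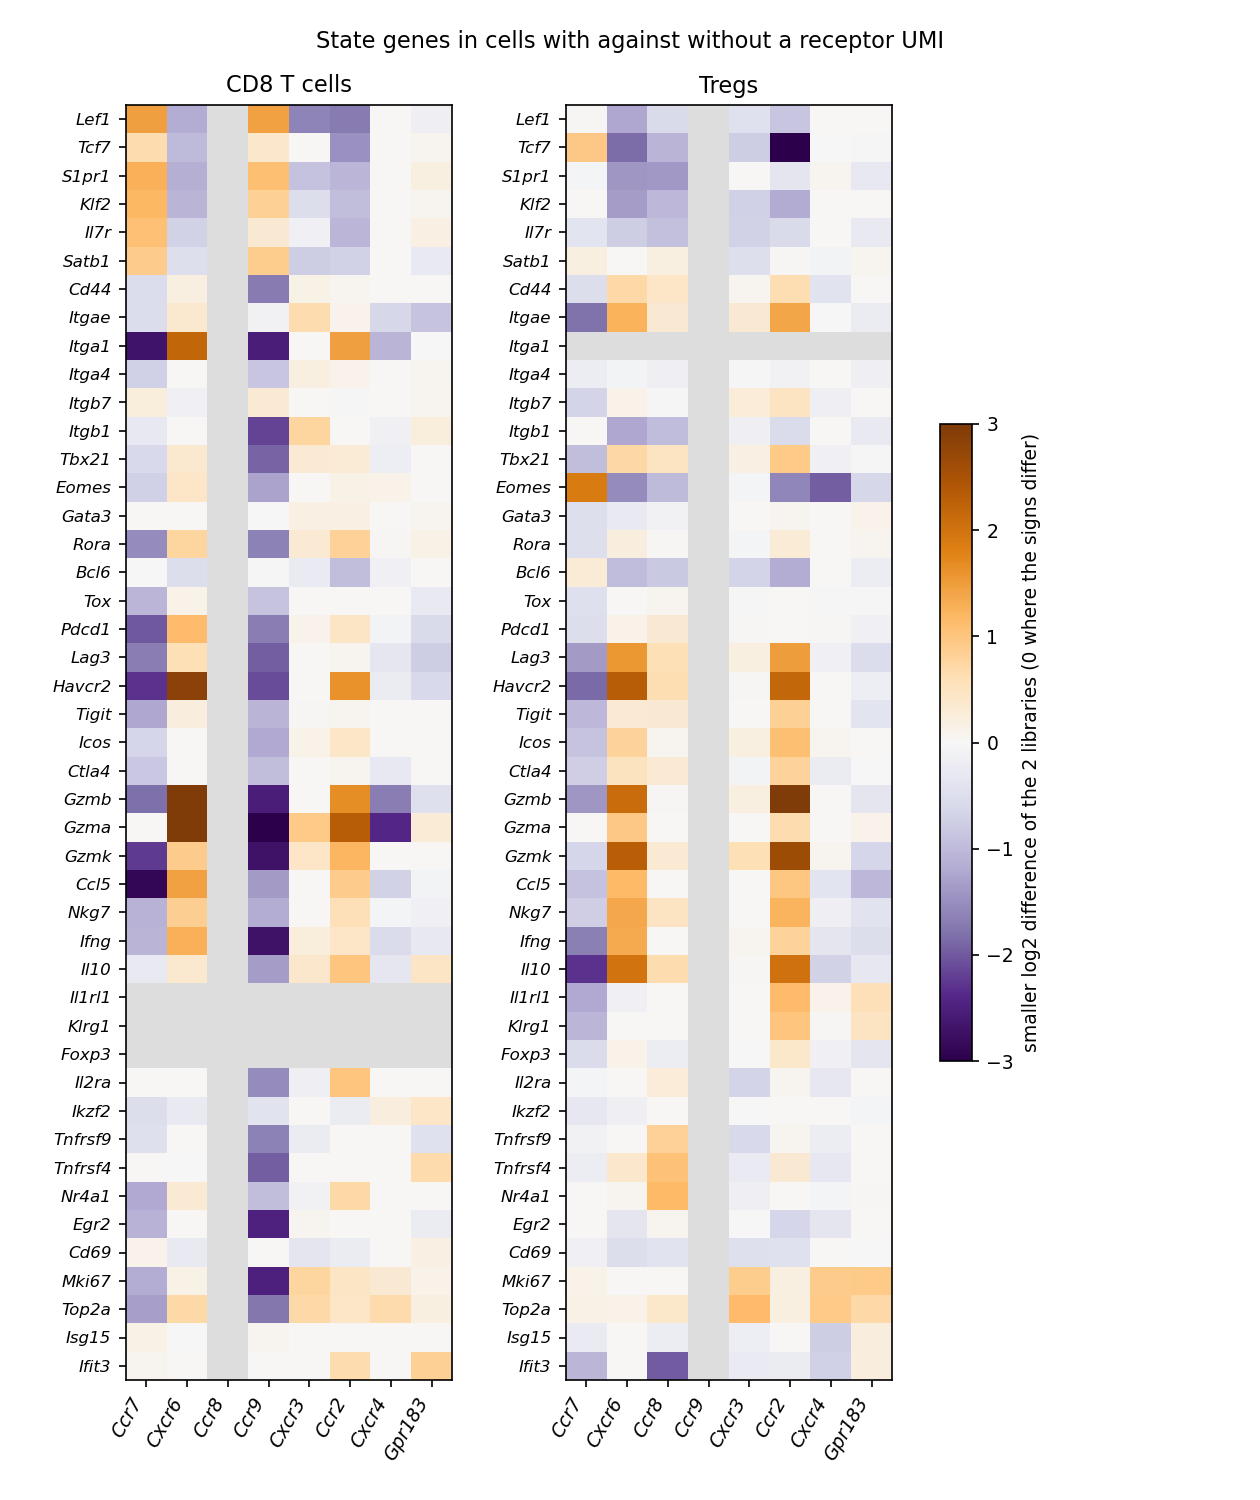
Difference in state genes between cells with and without a UMI of each receptor, as log2 of CPM, in CD8 T cells and Tregs without Siglech+ cells. Colour gives the smaller of the WT and KO differences where both have the same sign and 0 otherwise, and grey marks genes with under 20 UMIs or receptors with under 50 positive cells. Ccr7 and Ccr9 columns in CD8 T cells are opposite to those of Cxcr6 and Ccr2, and in Tregs Cxcr6 and Ccr2 resemble each other.

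The state of the cells that held each receptor was read from 45 genes of differentiation, residency, effector function and division. Values are at full depth unless called thinned. CD8 T cells with Ccr7 were higher than the others in the naive and memory cell factor Lef1 (log2 ratios of 2.55 in the WT and 1.47 in the KO), in S1pr1 (1.77 and 1.27) and in Il7r, the interleukin-7 receptor (1.19 and 1.07). They were lower in the chemokine Ccl5 (-2.87 and -3.01), in the inhibitory receptors Pdcd1 (-1.996 and -2.83) and Havcr2 (-2.31 and -2.87) and in granzyme B, Gzmb (-1.83 and -2.99). Ccr9+ cells had the same signs, with Lef1 at 2.83 and 1.45 and Gzmb at -4.06 and -2.54, and were also lower in Mki67 (-3.77 and -2.49).

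CD8 T cells with Cxcr6 were the reverse. Gzmb was higher by 3.16 (2.85 to 3.48) in the WT and 5.30 (4.83 to 5.82) in the KO, granzyme A, Gzma, by 3.07 and 5.41, Havcr2 by 2.85 and 4.38, and Itga1, the collagen-binding integrin of resident cells, by 2.20 and 3.27, while Lef1 was at -1.21 and -1.16. With cells thinned to 2000 UMIs the directions stayed but the sizes were smaller, at 1.95 and 4.20 for Gzmb, 2.01 and 3.47 for Gzma, 1.98 and 2.92 for Havcr2 and 0.91 and 2.61 for Itga1, while Lef1 stood at -1.19 and -1.22. Ccr2+ cells likewise were higher in Gzma (2.34 and 2.42) and Gzmb (1.64 and 2.604) and lower in Lef1 (-1.70 and -2.45). Cxcr3+ cells were lower in Lef1 (-1.62 and -1.92) and higher in the integrin Itgb1 (0.76 and 1.23). They differed little in Gzmb in the WT (-0.02 and 0.45).

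Tregs with Ccr2 were higher in Gzmb (4.02 and 3.93), granzyme K, Gzmk (2.65 and 2.66), the suppressive cytokine Il10 (2.16 and 2.03), Havcr2 (2.16 and 2.58), Lag3 (1.49 and 1.52) and Itgae, the CD103 integrin that binds epithelium (1.39 and 1.61). They were lower in Tcf7 (-3.60 and -3.45), a factor of less differentiated T cells. Thinned, with all Tregs classed, Gzmb stood at 2.74 and 2.98, Gzmk at 2.43 and 2.21 and Tcf7 at -4.26 and -4.63. Cxcr6+ Tregs had the same signs for Gzmb (2.75 and 2.11), Gzmk (2.30 and 2.60), Il10 (1.97 and 2.08), Havcr2 (2.34 and 3.01), Lag3 (1.56 and 1.66), Itgae (1.25 and 1.48) and Tcf7 (-2.91 and -1.84).

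Ccr7+ Tregs had the opposite sign for Il10 (-3.27 and -2.31), Itgae (-1.78 and -1.88), Havcr2 (-2.36 and -1.85) and Tcf7 (1.10 and 0.95). Unlike Ccr7+ CD8 T cells they did not stand out in Il7r (-0.40 and -0.41). Ccr8+ Tregs were higher in the costimulatory receptors Tnfrsf4 (1.04 and 1.04) and Tnfrsf9 (0.84 and 0.82) and in Nr4a1 (1.15 and 1.23), an early gene of antigen receptor signalling, and lower in S1pr1 (-1.78 and -1.39). The Tnfrsf9 value in the KO comes from the transcript that remained there.

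Tbx21, whose product is known to drive Cxcr3, was higher in Cxcr3+ CD8 T cells by 0.32 (0.04 to 0.60) in the WT and 0.96 (0.72 to 1.20) in the KO. In Cxcr3+ Tregs the values were 0.17 (-0.13 to 0.46) and 0.29 (-0.06 to 0.63), with intervals that took in 0. Tbx21 was higher in Tregs with Ccr2 (0.94 and 1.12) or Cxcr6 (0.76 and 0.71), whose promoters above hold no TCACAC.

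Cells with Cxcr3, Cxcr4 or Gpr183 were higher in Mki67 in Tregs of both libraries, by 0.88 and 1.62, 1.49 and 0.91, and 0.92 and 1.18. They were also deeper: Gpr183+ Tregs had medians of 5306 and 5694 UMIs against 4070 and 3865 in the others. With cells thinned to 2000 UMIs the Mki67 values were 0.18 and 0.27 for Cxcr3, -1.86 and -1.05 for Cxcr4 and 0.52 and 0.31 for Gpr183. No order is read for Cxcr4, whose sign turned, or for Cxcr3 and Gpr183, whose values became small. Thinned values of other division genes in Gpr183+ Tregs, with all Tregs classed, were mixed. Nusap1 (-0.01 and -0.18), Ube2c (0.56 and -0.34) and Hmmr (1.78 and -2.14) did not stay higher in both libraries. Pbk (0.65 and 1.57) and Rad51ap1 (0.56 and 1.86) did.

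Across single cells the genes most like each receptor were found by Pearson r over cells of log normalised counts, taking the smaller value of the libraries. These r values, over 879 (WT) and 1194 (KO) CD8 T cells and 1551 and 1443 Tregs, share library and depth and are descriptions. In CD8 T cells Ccr7 was most like Lef1 (0.57 and 0.50) and least like Ccl5 (-0.52 and -0.45). Ccr9 was most like Lef1 as well (0.44 and 0.42). Cxcr6 was most like S100a4 (0.54 and 0.66), Nkg7 (0.52 and 0.55) and Ccl5 (0.52 and 0.63), and Cxcr3 most like Itgb1 (0.27 and 0.34). Ccr2 was most like Ccl5 (0.34 and 0.38) and Cxcr6 (0.31 and 0.44).

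In Tregs the gene most like Cxcr6 was Ccr2 (0.39 and 0.36), followed by Lag3 (0.38 and 0.35) and Il10 (0.32 and 0.35). Ccr2 itself was most like Glrx (0.43 and 0.44) and least like Aff3 (-0.37 and -0.40), whereas Aff3 was the gene most like Ccr7 (0.24 and 0.21). Ccr8 was most like Tnfrsf4 (0.23 and 0.24) and Cxcr3 most like AW112010 (0.31 and 0.37). No gene reached 0.15 with Cxcr4 or Gpr183 in either class, with Ccr8 in CD8 T cells or with Ccr9 in Tregs.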

How the data were processed

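Sorted islet T cells were sequenced as 2 droplet libraries (Chromium Single Cell 3′ v2), 1 per genotype. Per the labels, the authors aligned the reads to mm10 with Cell Ranger 7.0.0 and deposited raw UMI counts per gene and cell. Whether intronic reads were counted is not given in the sources used here. Total depth was 19904506 (WT) and 19639995 (KO) UMIs.

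Counts were summed per class and library and divided by the class total (CPM, counts per 1000000 UMIs). Intervals are exact 95% (Poisson for levels, Clopper-Pearson for shares, conditional binomial for ratios) and cover counting error only. A gene entered a comparison with at least 20 UMIs over both sums. With 1 library per genotype there was no test, so the genotype cannot be told apart from the library. For thinned shares, each cell was sampled down to 2000 UMIs. Doublets were not called, but the class rules leave out cells with UMIs of both Cd8a or Cd8b1 and Cd4 or Foxp3. Positions come from GENCODE vM21 and promoters from RefSeq. The members, the gene lists and the cell rules were chosen with earlier results of these data known. Named were the 8 receptors, listed genes past the fold rule (largest first, up to 6 a list), up to 4 genes of highest and 3 of lowest likeness at 0.15 or beyond, and state genes from a list of 45. Siglech and its companion genes, and Ins2 and the other genes foreign to T cells, were chosen after values were seen. Ratios, intervals and pair counts were tested on simulated data. Python 3.11.15 (numpy 2.4.6, scipy 1.17.1, pandas 2.3.3) and R 4.3.3 with edgeR 4.0.16 (TMM factors only, as an alternative scaling) were used. Other alternatives were median of ratios scaling, equal weight per cell, other filters and class rules, and leaving out proliferating cells, cells with markers of other types or the 5 cells richest in a receptor. A few listed genes are not reported here.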

Additional observations from a re-analysis of the deposited data

Results flagged for a closer look

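Ccr7 differed between the genotypes in opposite directions in the 2 lineages. The log2 ratio of KO to WT was 1.33 for CD8 T cells and -0.33 for Tregs. Both intervals were clear of 0, but the Treg ratio was under the 1.5-fold rule. The share of Tregs with a Ccr7 UMI was 17.7% in the WT and 17.2% in the KO. The difference between the lineages was not tested, since each genotype was 1 library.

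Receptor transcripts were also found in the cells that met neither class rule, which no comparison used. There were 271 such cells in each library, with 886 UMIs of the 8 receptors in the WT and 995 in the KO. Cxcr3 was the most abundant receptor in them in the WT, at 141 (125 to 160) CPM. In the KO Cxcr3 stood at 132 (116 to 150), which overlapped Ccr2 at 129 (112 to 147). Ccr9 stood at 11.4 (7.04 to 17.4) in the WT and 28.0 (20.7 to 37.1) in the KO.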

How the results depend on the processing

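The receptors named in each comparison of genotypes and lineages were the same with TMM or median of ratios scaling, with looser or tighter filters on cells and genes, with classes set by the larger lineage sum and without cells with markers of other types. Leaving out the 5 cells richest in each receptor added Gpr183 to those higher in Tregs, and so did strict classes and leaving out Siglech+ cells. In strict classes CD8 T cells needed 3 Cd8a and Cd8b1 UMIs and no Ikzf2 or Il2ra, and Tregs needed Foxp3 or Il2ra. These classes gave 2 lower receptors in KO CD8 T cells (Cxcr3 and Ccr2), Gpr183 among the higher ones, and 1 lower in KO Tregs (Ccr7). At this setting 9.96% of all genes were higher and 6.27% lower in KO CD8 T cells, and 2.09% were lower in KO Tregs. Leaving out proliferating cells gave 2 lower in CD8 T cells and 1 in Tregs (Cxcr4), where 4.27% and 2.24% of all genes were lower. Leaving out Siglech+ cells gave 0 lower in CD8 T cells, where 6.20% of all genes were lower. Equal weight per cell gave 2 lower in CD8 T cells, and the share of all genes at that weighting is not given. The cause of these changes was not tested. Excluding pairs in Tregs numbered 4 with the larger lineage sum (Ccr8 with Cxcr4 lost), 3 with 1 depth bin, after thinning (Ccr7 with Ccr2 kept, Ccr7 and Ccr8 each with Cxcr3 new) and without proliferating cells, 2 under strict classes and 1 with at least 2 UMIs of each receptor. Ccr8 with Cxcr4 stood at 0.50 and 1.18 after thinning, with under 10 cells expected. The other Treg pairs no longer named after thinning also had under 10 cells expected in at least 1 library. Shared pairs in CD8 T cells numbered 0 under strict classes and 2 without proliferating cells (Cxcr6 with Ccr2 and Ccr2 with Gpr183, not Ccr7 with Ccr9), and in Tregs 2 with 1 depth bin (Cxcr6 with Ccr8 added). After thinning, or with at least 2 UMIs of each receptor, none of the pairs named in CD8 T cells was named, and instead Cxcr6 with Ccr2 was shared and Ccr7 with Cxcr6 and Cxcr6 with Ccr9 excluded each other. No paired analysis was possible because each genotype had 1 library.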

Other observations

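Outside the 8 receptors, Tregs of both libraries were set apart from CD8 T cells by Ccr4, a receptor for CCL17 and CCL22, at 18.2 (WT) and 23.4 (KO) CPM against 0.43 and 0.51. Ccr6, the receptor for CCL20, stood at 12.9 and 18.9 in Tregs against 1.14 and 0.63. Cxcr5, the B cell follicle receptor, stood at 31.4 and 34.2 against 10.8 and 9.86. Cx3cr1, found on effector CD8 T cells, was higher in CD8 T cells, at 22.2 and 17.7 against 7.76 and 8.46 in Tregs.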
